A study of Mus musculus with 15 samples.

Results

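Pla2g4f, the gene of a cytosolic phospholipase A2, was followed in liver RNA across 15 mice in 5 groups. It is 1 of the 2545 genes in the deposited table and was found there by its symbol. The gene was chosen from its values in these same 15 mice, where all 3 mice of one group shared its lowest value. Its levels are therefore given as a description with no test. All mice were ovariectomized females from 1 provider, of the strain C57BL/6 by the labels and C57BL/6J by the study's methods, kept on a diet with 45% of calories from fat from 8 weeks of age, operated on at 10 weeks of age and treated for 6 weeks. The groups of 3 mice were given vehicle (Veh), estradiol (E2), conjugated estrogens (CE), bazedoxifene (BZA) or the last 2 together (CE+BZA). The methods of the study list daily doses per kg of body weight of 5 μg for E2, of 2.5 mg for CE and of 3 mg for BZA. CE was loaded into implanted osmotic pumps, and E2 is described as coming from slow-release pellets whose content is not tied to the listed dose. The vehicle was 43% DMSO, 15% ethanol and 42% saline. Sham-operated mice were not analysed here, so every group, Veh included, lacks ovaries and carries the diet.

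Phospholipases A2 cut the fatty acid from the middle position of a membrane phospholipid and leave a lysophospholipid. The cytosolic group IV enzymes, to which the product of Pla2g4f belongs, mostly bind membranes in the presence of calcium. Their best known member releases arachidonic acid, from which cyclooxygenases, lipoxygenases and cytochrome P450 enzymes make the eicosanoids. Both CE and BZA are drugs taken after the menopause, the first an estrogen preparation and the second a ligand of the estrogen receptors whose action differs from tissue to tissue.

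In the GRCm38 (mm10) annotation, Pla2g4f (ENSMUSG00000046971.7) lies on chromosome 2 from 120299957 to 120314165 on the minus strand and spans 14209 bp. It has 2 annotated transcripts. One is protein-coding with 20 exons, and the other keeps an intron and has 15 exons. No annotated gene overlaps it (0 genes). The nearest gene is Vps39, at 2296 bp, and 2 relatives from the same cytosolic phospholipase A2 cluster, Pla2g4d at 10760 bp and Pla2g4e at 54622 bp, follow on the same chromosome. The other Pla2g4 genes looked up, Pla2g4a, Pla2g4b, Pla2g4c, Pla2g4d and Pla2g4e, had no row in the deposited table, so no values can be given for them.

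The 250 bases before the annotated start of the gene are shown because the table compares estrogens and an estrogen receptor modulator. They come from RefSeq (GRCm38.p6, chr2:120314166-120314415, minus strand) and run 5′ to 3′ towards the gene. The capitals mark 2 adjacent copies of a 21-base direct repeat, with 0 bases between them.
Pla2g4f promoter: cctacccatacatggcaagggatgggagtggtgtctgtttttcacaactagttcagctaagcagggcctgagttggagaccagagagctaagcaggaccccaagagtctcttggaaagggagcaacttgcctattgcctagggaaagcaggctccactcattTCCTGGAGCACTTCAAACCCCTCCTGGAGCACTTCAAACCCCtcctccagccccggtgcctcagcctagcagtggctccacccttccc
A direct repeat at least as long was present in 287 of the 27025 promoters of this length (1.06%). The palindromic estrogen response element, GGTCA and TGACC with any 3 bases between them, had 0 matches on either strand here and was present in 17 promoters (0.0629%). GGTCA alone, which is contained in that element, had 0 matches here and was found in 9430 promoters (34.9%). The direct repeat of AGGTCA with 1 base between the copies, which many nuclear receptors bind and which also holds GGTCA, had 0 matches here and was present in 10 promoters (0.0370%). These searches describe the letters of this window and nothing beyond it.

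The deposited values are log2 levels, each set against that gene's own median in the 15 mice, after a floor was applied to low values. The lowest value of Pla2g4f was −1.17 and was shared by 4 mice, which is the floor. Every other level can also be given as a multiple of that lowest value. The total reads per mouse are not given in the table. The spacing of low values gave the size of 1 read in each mouse, and from it an estimate of the reads behind a value. Within each mouse, 51.1 to 73.3% of low values fell no further than 0.02 reads from a whole number, so these reads are estimates and are given as a description. All 2545 genes of the table had a mean difference from Veh above 1 in size in at least 1 treatment, so the table is a selection of genes and not the whole liver transcriptome.

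Pla2g4f was highest in the Veh mice. The log2 levels were 2.93, 2.81 and 1.41 in Veh replicates 1, 4 and 7, or 17.0, 15.7 and 5.97 times the lowest value. Replicates 1 and 4 lay close together, and replicate 7 was well below them. In the E2 mice the log2 levels were 1.26, 1.15 and 1.91 in replicates 3, 4 and 5, or 5.35, 4.98 and 8.40 times the lowest value. The highest E2 mouse was above the lowest Veh mouse, so the values of these 2 groups overlapped.

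In the CE mice the log2 levels were −0.87, 0 and −1.06 in replicates 3, 6 and 7. No CE mouse was at the lowest value, but replicates 3 and 7 were within 1.22 and 1.08 times of it, and replicate 6 was at 2.24 times. In the BZA mice, replicate 1 was at the lowest value, and the log2 levels of replicates 3 and 4 were 0.19 and −0.20. All 3 CE+BZA mice were at the lowest value, −1.17. Every mouse of these 3 groups was below every Veh mouse and every E2 mouse. Whether fewer cells of a type or less of the RNA per cell lay behind a lower level cannot be told apart in RNA from whole liver.

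**Figure D1:**
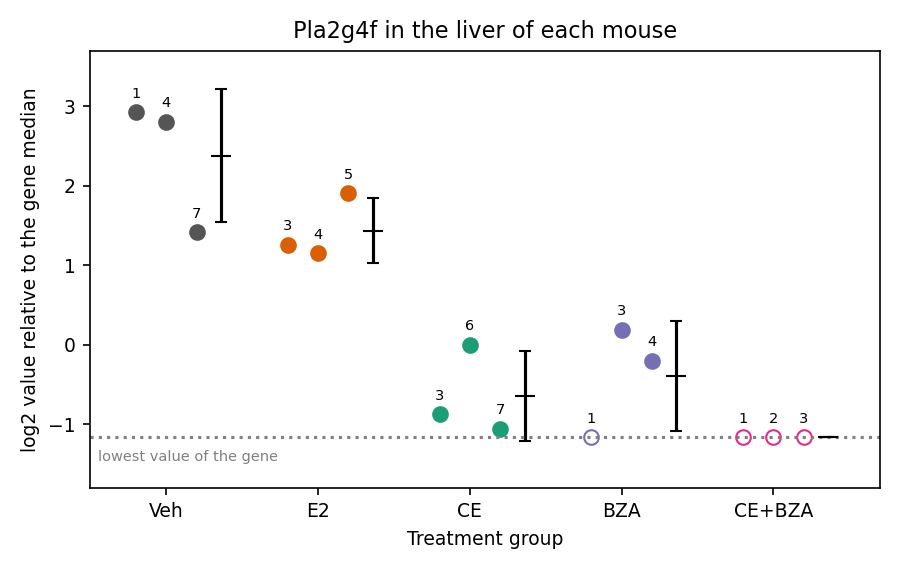
Log2 level of Pla2g4f, relative to its median over the 15 mice, for each mouse (points) in the 5 groups, with the group mean and SD (bars) and the lowest value of the gene marked. Veh and E2 mice lie between 1.15 and 2.93, CE and BZA mice at or below 0.19, and the 3 CE+BZA mice all at −1.17.

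The group means followed the order Veh, E2, BZA, CE and CE+BZA. They were 2.38 ± 0.84 for Veh, 1.44 ± 0.41 for E2, −0.39 ± 0.70 for BZA and −0.64 ± 0.57 for CE on the log2 scale (SD, n = 3 mice each). The CE+BZA mean was −1.17, with no spread because all 3 values are the floor. E2 differed from Veh by −0.94 ± 0.54 (SE), and the values overlapped. The difference of the medians was −1.55. With a replicate block the E2 difference was −1.61, but E2 replicate 5 did not inform it, as no other mouse has that number. With no block, leaving out Veh replicate 7 gave −1.43, and leaving out Veh replicate 1 gave −0.67. The BZA and CE means were 0.25 ± 0.52 apart (BZA minus CE, SE), also with overlapping values, and without BZA replicate 3 that difference was −0.04.

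The step in these data lay between E2 and the other treatments. CE was below Veh by a log2 difference of −3.03 ± 0.58 (SE), a ratio of 8.52 between the mean multiples. All 3 CE mice were below all 3 Veh mice, which was also so for 12.3% of the genes in the table. BZA differed from Veh by −2.77 ± 0.63 (SE), a ratio of 7.02, with all BZA mice below all Veh mice against 11.8% of genes. This BZA difference includes the mouse at the floor, and it was −2.39 without BZA replicate 1.

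CE+BZA differed from Veh by −3.55 ± 0.49 (SE), which makes the Veh mean multiple at least 12.9 times as high. The groups did not overlap, as for 13.7% of genes in that comparison. Because the choice of the gene used these values, nothing is read from its place among those genes. Against E2, the log2 differences were −2.08 ± 0.40 for CE, −1.83 ± 0.47 for BZA and −2.60 ± 0.24 for CE+BZA (SE). None of these 3 groups overlapped with E2, and the same held for 5.54, 6.92 and 8.49% of all genes.

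The estimated reads show how little RNA of this gene was counted. Veh replicates 1, 4 and 7 had about 17.1, 13.9 and 6.00 reads. The E2 mice had about 5, 4.36 and 10 reads in replicates 3, 4 and 5. Both groups thus stayed above the floor by several reads in every mouse. The CE mice had about 1.29, 2 and 1 reads in replicates 3, 6 and 7. BZA replicates 3 and 4 had about 3 and 2 reads, and BZA replicate 1 had at most 1.08. Each CE+BZA mouse had at most 1.01, 1.12 or 1.03 reads, so 0 reads and 1 read cannot be told apart there.

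Summed over the 3 mice of a group, Veh had 37.0 reads, with an exact Poisson 95% interval of 26.1 to 51.0. E2 had 19.4 reads (11.7 to 30.1). CE had 4.29 reads (1.24 to 10.7), and BZA had 5 to 6.08 (1.62 to 13.2). CE+BZA had between 0 and 3.16 reads, with an upper bound of 9.01. These intervals cover counting error only and not the differences between mice, and they are given for the precision of each sum and not as a test between groups.

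**Figure D2:**
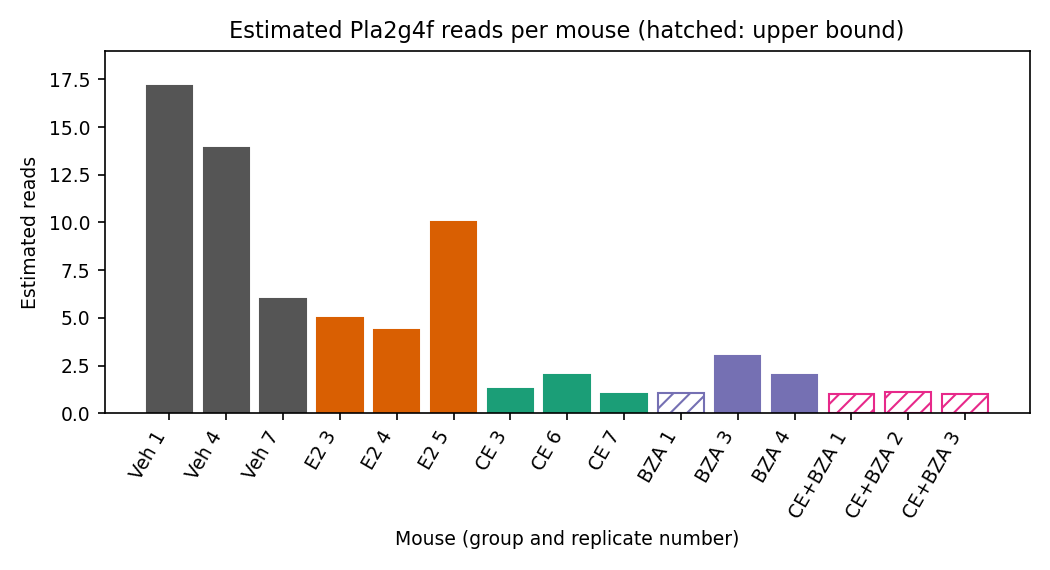
Estimated reads of Pla2g4f, 1 bar for each mouse, coloured by group. Hatched bars mark the 4 mice at the lowest value, where the estimate is an upper bound of about 1 read, while Veh replicate 1 has about 17.1 reads.

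The values of CE+BZA and its components rest on 0 to 3 estimated reads per mouse. The log2 difference of CE+BZA from CE was −0.52 ± 0.33 (SE), and without CE replicate 6 it was −0.20. All CE+BZA mice were below all CE mice, as for 9.82% of genes, but this compares 1 or 2 estimated reads per mouse with 0 or 1. CE replicate 7 was above the floor with 1 estimated read, whereas a CE+BZA mouse with 1 read would be at it. The separation from CE replicate 7 can therefore arise at an equal number of reads. From BZA the log2 difference was −0.77 ± 0.40 (SE), and the groups shared the lowest value through BZA replicate 1. It was −1.16 without BZA replicate 1 and −0.48 without BZA replicate 3.

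The floor also bounds how far any treatment could take the gene. The CE and BZA differences from Veh sum to −5.80 on the log2 scale, whereas the largest difference that the floor allows is −3.55, which is the CE+BZA value itself. The departure from that sum, 2.25, is therefore set by the floor. Whether CE and BZA added up on Pla2g4f cannot be read from these values.

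The depth of each library was read from the size of 1 read. A read was worth 0.994 to 1.13 floor units for Veh, 0.840 to 1.14 for E2, 0.949 to 1.12 for CE, 0.851 to 0.977 for BZA and 0.896 to 0.989 for CE+BZA, where a smaller unit means a deeper library. By this measure each CE+BZA library was slightly deeper than each Veh library, and the deepest libraries were E2 replicate 5 (0.840) and BZA replicate 3 (0.851), in which Pla2g4f was above its lowest value. A deeper library also puts a single read nearer to the floor. In every CE+BZA library 1 read was worth less than 1 floor unit, so a single read there is at the floor. In CE replicate 7 a read was worth 1.08 floor units, so its 1 estimated read lay above the floor.

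In the table, 1045 of the genes (41.1%) had at least 2 mice at their lowest value. Pla2g4f was on the higher side of these genes, since its highest estimate of 17.1 reads compares with a median of 7.96 reads for their highest mouse, and 85.0% of them had a lower maximum. All 3 CE+BZA mice were at the lowest value in 165 genes, and in 19 of these no Veh mouse was. Of the 19, Pla2g4f had the most negative difference from Veh. Over all 2545 genes it ranked 537 from the most negative for E2, 4 for CE, 11 for BZA and 6 for CE+BZA, where the median differences of all genes were 0, 0.06, 0.11 and 0.08. These ranks restate the values that chose the gene.

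The other genes of the pathway were taken from 6 lists with 296 symbols besides Pla2g4f, of which 49 had a row in the table. Each treatment was compared with Veh by limma over all 2545 genes, with calls made where the fold change exceeded 2 and the FDR, the Benjamini-Hochberg adjusted p over the table, was under 0.05. All these genes had a mean difference from Veh above 1 in size in at least 1 treatment of the same mice. The fold rule was therefore partly met in advance, and p and FDR over such a selection are not calibrated. The lists were also chosen with earlier results of these data known. The numbers called among the 49 genes were 0, 1, 0 and 0 for E2, CE, BZA and CE+BZA. The 1 gene was Mogat1, which fell in CE, and with a replicate block 0 were called there. Over the table, 0.0786% of genes were called higher and 0.118% lower for E2, 0.0393% higher and 0.118% lower for CE, 0.0% either way (0.0% and 0.0%) for BZA, and 0.0786% higher and 0.0393% lower for CE+BZA.

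With a fold change above 2 and an unadjusted p under 0.05, a looser rule, 9 of the 49 genes were higher and 13 lower in E2. The shares of the table were 6.52% and 8.61%. In CE, 3 were higher and 15 lower, against 10.1% and 8.45% of the table. In BZA, 7 were higher and 7 lower, against 8.92% and 7.47%. In CE+BZA, 5 were higher and 14 lower, against 11.6% and 9.55%. The median log2 differences of the 49 genes were −0.02, −0.32, 0.06 and 0.08 in E2, CE, BZA and CE+BZA.

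Among the phospholipases A2, 1 of 38 listed genes besides Pla2g4f had a row. It was Pnpla3, which encodes a lipid droplet hydrolase. Its log2 differences from Veh were 1.89, 0.33, −0.49 and 0.76 in E2, CE, BZA and CE+BZA, with a limma FDR of 0.280 in E2, and its Pearson r with Pla2g4f over the 15 mice was 0.07. Of 54 other phospholipases and lysophospholipases, 4 had a row. Gdpd3, a lysophospholipase D, differed by 1.32 in CE+BZA and by at most 0.21 in size in the other treatments. The medians of these 4 genes were 0.11, 0.28, 0.47 and 0.87 in E2, CE, BZA and CE+BZA, and all 4 had an r with Pla2g4f below 0.

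Downstream of the phospholipases, 20 of 73 genes for making or clearing eicosanoids had a row. At the looser rule, 6 were higher and 5 lower for E2, 2 and 7 for CE, 3 and 4 for BZA, and 1 and 5 for CE+BZA, and by limma's FDR 0 passed in every treatment. Over the table the shares were 6.52% and 8.61% for E2, 10.1% and 8.45% for CE, 8.92% and 7.47% for BZA, and 11.6% and 9.55% for CE+BZA. Their median log2 differences were −0.21, −0.15, 0.42 and 0.15 in E2, CE, BZA and CE+BZA. The lower ones included Cyp2c55, a P450 that oxidizes arachidonic acid. Its log2 levels were 1.33, 1.26 and 1.67 for Veh, 0.53, −0.01 and 0.03 for E2, −0.51, 0.52 and −0.05 for CE, 0.17, −0.67 and −0.04 for BZA, and 0, −0.69 and −1.84 for CE+BZA. All 12 treated mice were below all 3 Veh mice, which was so for 2.32% of the table.

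The log2 differences of Cyp2c55 were −1.24, −1.43, −1.60 and −2.26 in E2, CE, BZA and CE+BZA (SE 0.52), with an FDR in limma of 0.0744 in CE+BZA. Cyp4a10 and Cyp4a32 encode fatty acid omega-hydroxylases, which add a hydroxyl group to the end of the arachidonic acid chain. Their CE+BZA differences were −1.96 ± 0.52 and −1.85 ± 0.46 (SE), with limma FDRs of 0.109 and 0.107. Reads of these near-identical Cyp4a copies may have been split between them, so their values are uncertain. Cyp4a12a, the omega-hydroxylase known for its male-biased level, had another order, with −3.45, −3.02, −0.22 and 0.08 (SE 0.77), and 4 E2 and CE mice at its lowest value.

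The 3 of 18 eicosanoid receptors with a row included Ptgfr, the receptor of prostaglandin F. Its log2 differences were −2.14, −2.25, −1.10 and −1.56 in E2, CE, BZA and CE+BZA (SE 0.69). Ptgfr was the 1 receptor lower by the looser rule in E2, CE and CE+BZA, and 0 receptors were higher. Its limma FDRs there were 0.218, 0.194 and 0.230. Of all genes, 8.61, 8.45 and 9.55% were lower by this rule in E2, CE and CE+BZA. The shares higher were 6.52, 10.1, 8.92 and 11.6% in E2, CE, BZA and CE+BZA. Alox12, a lipoxygenase named here after its values were seen, lay in the other direction with 1.86, 2.09, 1.70 and 1.66. Thus the listed eicosanoid genes did not share 1 direction.

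Phospholipid synthesis and acyl remodelling had 5 of 69 genes in the table. At the looser rule 1 was higher and 0 lower for E2, 0 and 0 for CE, 2 and 1 for BZA, and 3 and 1 for CE+BZA. The shares of all genes were 6.52% and 8.61% for E2, 10.1% and 8.45% for CE, 8.92% and 7.47% for BZA, and 11.6% and 9.55% for CE+BZA. Lpin1, a phosphatidate phosphatase, had 1.38, 1.16, 1.67 and 2.32 (SE 0.64), and Etnk2, an ethanolamine kinase, 0.60, 0.88, 1.32 and 1.28 (SE 0.44). Lpcat4, a lysophospholipid acyltransferase that puts fatty acids back onto the product of a phospholipase A2, had 1.04, 1.16, 1.09 and 1.37 (SE 0.63). Elovl3, a fatty acid elongase, was on the other side with −0.95, −1.05, −1.35 and −1.496 (SE 0.54). The medians of these 5 genes were 0.60, 0.88, 1.09 and 1.28.

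Triacylglycerol storage had 16 of 44 genes in the table. The looser rule gave 1 higher and 7 lower for E2, 1 and 7 for CE, 2 and 2 for BZA, and 0 and 7 for CE+BZA, with medians of −0.89, −0.84, −0.57 and −0.88. The 2 higher in BZA, Cidea and Plin1, had 11 and 12 mice at their lowest value. Their levels were 3.35 and 5.11 in BZA replicate 3, 0.89 each in BZA replicate 1 and 0 each in BZA replicate 4. The table-wide shares were those given for the eicosanoid genes, 6.52% and 8.61% for E2, 10.1% and 8.45% for CE, 8.92% and 7.47% for BZA, and 11.6% and 9.55% for CE+BZA. Mogat1, an acyltransferase that makes diacylglycerol, had log2 levels of 2.31, 2.04 and 2.25 for Veh, −0.98, 0.34 and 0 for E2, −0.75, −1.11 and 0.18 for CE, 0.62, −0.19 and −0.37 for BZA, and 0.03, −0.23 and −0.32 for CE+BZA. Every treated mouse was below every Veh mouse, as in 2.32% of the table, and the E2 mice lay among those of the other treatments. The differences were −2.41, −2.76, −2.18 and −2.37 (SE 0.50), with limma FDRs of 0.0593, 0.0352, 0.172 and 0.0573. The CE call was lost with the replicate block and when any 1 of 8 mice was left out, namely Veh 1, 4 or 7, E2 5, CE 3 or 6, or CE+BZA 1 or 2.

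The order of the treatments varied among the storage genes. Fabp2, a fatty acid binding protein named here after its values were seen, had the highest r with Pla2g4f in the list (0.62). Its differences were −0.20, −0.78, −1.19 and −1.39 in E2, CE, BZA and CE+BZA (SE 0.54), with a limma FDR of 0.211 in CE+BZA. Plin4, a lipid droplet coat protein, had −2.42, −1.96, −0.84 and −0.14 in E2, CE, BZA and CE+BZA (SE 0.59). Cd36, a fatty acid transporter, had −1.27, −1.03, −0.88 and −1.59 (SE 0.46). Fabp5, of the same family as Fabp2, had 2.59, 1.37, −0.74 and 0.24 (SE 0.63). Of the last 3, Plin4 and Fabp5 were furthest from 0 in E2, the treatment in which Pla2g4f stayed nearest to Veh.

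**Figure D3:**
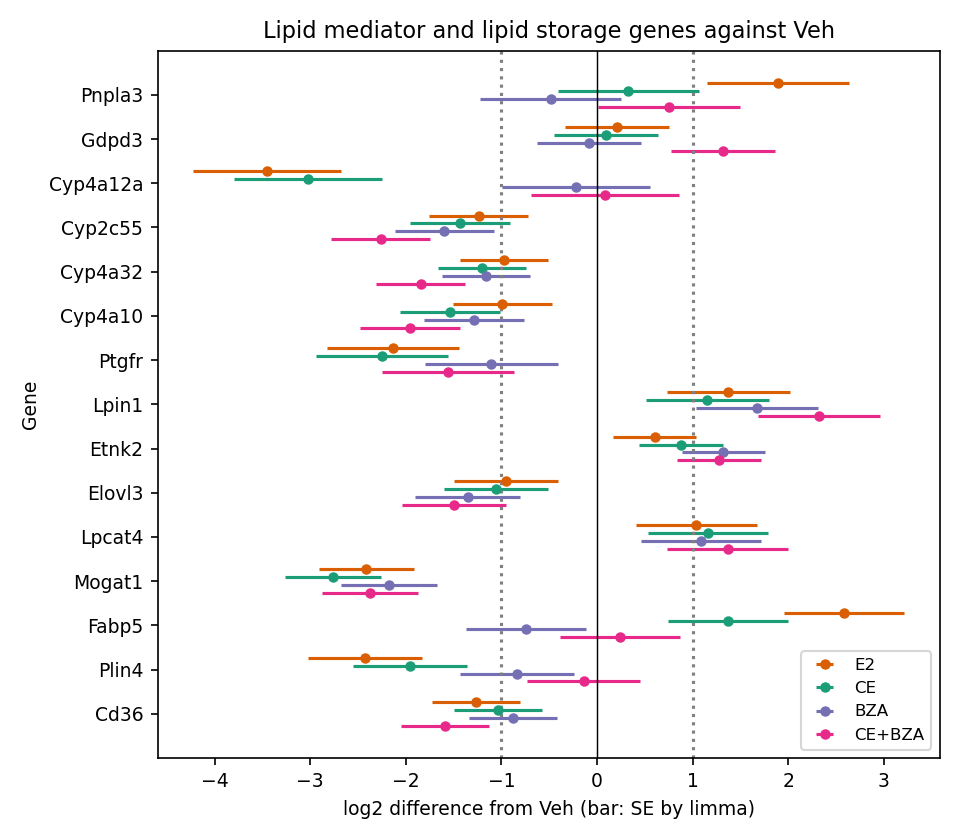
Log2 difference from Veh (points) with its SE by limma (bars) for the named pathway genes, coloured by treatment, with dotted lines at a fold change of 2 either way. Mogat1 lies between −2.18 and −2.76 in all 4 treatments, while Cyp4a12a and Plin4 are far below 0 in E2 and CE and near 0 in CE+BZA.

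Patterns across the mice were compared by Pearson's r with the log2 levels of Pla2g4f, as a description over 15 mice that share group and floor. Over the other 2544 genes the median r was −0.10, with 20 genes above 0.7 and 29 below −0.7. The 10 most like genes were Fam189a1 (r = 0.79), Casc1 (0.77), Wdr67 (0.74), Mlf1 (0.74), Ccdc15 (0.74), Trdmt1 (0.74), Angptl1 (0.74), Id4 (0.74), Gm15707 (0.73) and Gm12222 (0.72). The lowest value was shared by at least 5 mice in Fam189a1 (9 mice), Casc1 (9 mice), Gm15707 (8 mice) and Gm12222 (5 mice). Fam189a1 and Casc1 had at most 5 and 4 estimated reads in any mouse, and Fam189a1 was above its lowest value in 1 CE+BZA mouse, unlike Pla2g4f.

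Of the 10 genes, Id4, a regulator of transcription without a DNA-binding region of its own, had the highest r over the 12 treated mice alone (0.80). Its mean log2 levels were 0.50 ± 0.36 for Veh, 0.75 ± 0.29 for E2, −0.61 ± 0.57 for CE, 0.17 ± 0.47 for BZA and −0.71 ± 0.71 for CE+BZA (SD, n = 3 mice each). Trdmt1, an RNA methyltransferase that acts on tRNA, had an r of 0.71 over the treated mice and means of 0.57, 0.15, −0.06, −0.03 and −0.43 in the same order. Angptl1, a secreted angiopoietin-like protein, had 1.21, 0.11, −1.35, 0.28 and −0.89. The most opposite genes were Fst (r = −0.82), Ccdc136 (−0.82) and Ccl25 (−0.79). Fst, the activin-binding protein follistatin, had means of −1.19 ± 0.53 for Veh, −1.14 ± 1.03 for E2, 0.20 ± 0.61 for CE, 0.65 ± 0.56 for BZA and 1.14 ± 0.49 for CE+BZA (SD, n = 3 mice each). Its order was the reverse of Pla2g4f apart from BZA and CE, which overlapped for Pla2g4f.

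**Figure D4:**
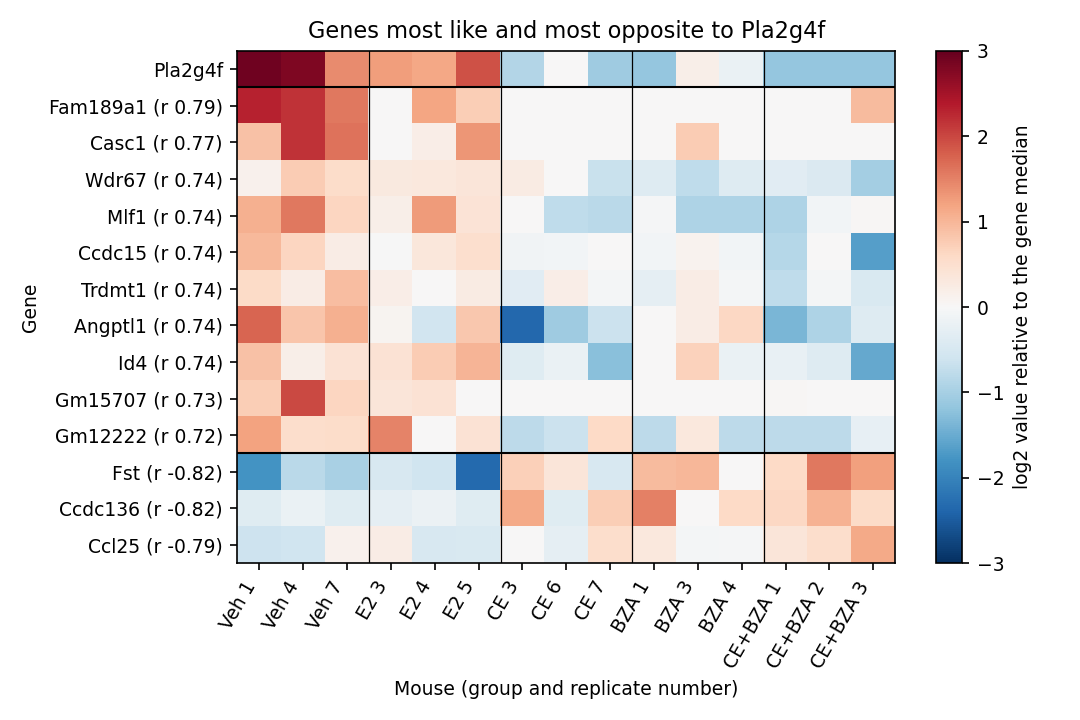
Colour map of the log2 level of Pla2g4f (top row), of the genes most like it and of those most opposite to it (rows), in each of the 15 mice ordered by group (columns). The 10 like genes are higher in Veh mice than in CE+BZA mice on average, with r from 0.72 to 0.79, and Fst, Ccdc136 and Ccl25 run the other way.

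The pathway lists did not lie near Pla2g4f as a whole. Their 49 genes had a median r of −0.01, with 23 above 0, and among all compared genes 1076 of 2544 were above 0. Triacylglycerol storage had a median r of 0.32 with 12 of 16 genes above 0, and phospholipid synthesis had −0.54 with 2 of 5. For eicosanoid genes the median was −0.10 with 7 of 20 above 0. Of these 20 genes, 4 had an r above 0.7, which were Cyp4a10, Cyp4a31, Cyp4a32 and Cyp2c55 at 0.71 each, and 3 of the 4 are near-identical copies.

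Position on the chromosome was also compared. Within 1 Mb of Pla2g4f, 66 genes are annotated, 45 of them protein-coding, and 5 had a row in the table. Ltk, a receptor tyrosine kinase 539526 bp away, had the highest r of these at 0.50 with 5 mice at its lowest value. Nusap1 (648713 bp) had 0.35, Tyro3 (481853 bp) 0.25, Oip5 (681488 bp) 0.07 and Chac1 (945576 bp) −0.37. None of these 5 genes was among the 10 most like. Ltk had its highest group mean in E2 (0.99 ± 0.57, SD, n = 3 mice) and not in Veh (−0.20 ± 0.63, SD, n = 3 mice).

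Marker genes of other cells were read beside these values. Of 10 hepatocyte markers, 1 had a row (Tat), so the liver label could not be checked by them. The log2 levels of 7 of 11 adipocyte markers summed to between 3.44 and 5.16 for Veh, −2.31 and −1.30 for E2, −4.07 and 1.497 for CE, −1.62 and 26.3 for BZA, and 0.20 and 2.26 for CE+BZA. Adipoq, Lep and Plin1, which define adipocytes, were at their lowest value in all 3 Veh mice. The other 4 markers had Veh means of 4.20 (Cfd), 0.99 (Car3), 0.39 (Retn) and −0.998 (Pck1), so Cfd made up most of the Veh sum. The part of fat tissue in the Veh level of Pla2g4f was not tested.

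BZA replicate 3 stood apart, with adipocyte markers summing to 26.3 and 7 of 10 pancreas and erythroid markers to 29.7, against at most 5.16 and 5.04 in every other mouse. It had the highest Pla2g4f level of the BZA mice (0.19), and without it the BZA difference from Veh was −3.06. Lymphocyte and neutrophil markers (6 of 11 with a row) summed to between −6.04 and −0.86 for Veh, −4.30 and 1.76 for E2, 2.05 and 12.3 for CE, −1.65 and 3.24 for BZA, and −3.21 and 4.25 for CE+BZA. Their sum was higher in every CE mouse than in every Veh mouse, but no share of all genes is given for that direction. The genes of this list did not all move together. The largest rises in group mean were in S100a8, from −1.19 in Veh to 2.51 in CE, and in S100a9. Cd3e, Cd3g and Nkg7 rose by less, and Ms4a1 had a lower mean in CE than in Veh. The sum therefore does not show that lymphocytes and neutrophils rose together. The part of these markers in the level of Pla2g4f was not tested. Macrophage (1 of 10), stellate and endothelial (2 of 10) and epithelial (3 of 10) markers had too few genes to describe these cells, and their summed levels in Veh, between −1.24 and 0.27, −0.61 and 0.35, and −3.64 and 0.05, overlapped with those in CE+BZA in each list.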

How the data were processed

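Liver RNA of 15 mice in 5 groups was sequenced by the authors, mapped with TopHat, quantified per gene with StrandNGS with partial reads included, and normalized with DESeq. The submitters' processing notes list CASAVA 1.8.2, TopHat2 0.5, mm10 and hg19. The values that the authors deposited are log2 levels per gene and mouse relative to the gene's median. Whether the counting used strand is not given in the sources used here. The study says 3 samples per group and single-end reads, while the labels describe paired reads and 2 sequenced samples per group. The table has 3 columns per group, and all were used.

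Columns were matched to mice by name (0 unmatched), and 0 of 105 pairs of mice were identical. The mice are labelled biological replicates. The members and gene lists were chosen with earlier results of these data known. The deposited values entered the fit unchanged and unfiltered. The fit used limma 3.58.1 in R 4.3.3, with 5 groups, over all 2545 genes and Benjamini-Hochberg adjustment, after a test on simulated data. Python 3.11.15, numpy 2.4.6, pandas 2.3.3, scipy 1.17.1 and matplotlib 3.10.9 were used for the rest. The size of a read was estimated from values up to 8 times the lowest in genes with at least 2 mice there. Named genes were Pla2g4f, listed phospholipases A2 in the table, genes within 1 Mb, at most 4 genes per other list by smallest limma p, and the 10 most like and 3 most opposite genes. Alternatives were other averages, scalings, filters and correlations, a replicate block, and leaving out each mouse. Annotation was GENCODE GRCm38, and promoters were from RefSeq.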

Additional observations from a re-analysis of the deposited data

How the results depend on the processing

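Of 209 alternative values of the Pla2g4f differences, 206 moved by under the pooled SD of the mice. Many of the 209 could not move. Leaving out a mouse from outside the compared groups, or a CE+BZA mouse at the floor, leaves a difference unchanged. The count of 206 is therefore no measure of stability. Among the differences above 1 in size, 0 changed sign. Of the smaller ones, BZA minus CE went from 0.25 to −0.04 without BZA replicate 3. The median in place of the mean gave −1.55 for E2 and −3.68 for CE against Veh. Leaving out 1 mouse gave −1.43 to −0.67 for E2, −3.51 to −2.75 for CE, −3.26 to −2.39 for BZA and −4.03 to −3.27 for CE+BZA. The 10 most like genes shared 4 with those by Spearman's rho, 5 when genes with 2 or more mice at the floor were dropped, and 3 to 9 when a mouse was left out, and 0 of the 10 were kept in all 15 such sets.

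Of the 49 listed genes, a fold change above 2 with an unadjusted p under 0.05 in limma called 22 for E2, 18 for CE, 14 for BZA and 19 for CE+BZA. The shares of all genes, higher and lower, were 6.52% and 8.61% for E2, 10.1% and 8.45% for CE, 8.92% and 7.47% for BZA, and 11.6% and 9.55% for CE+BZA. Quantile normalization called 1 in E2 and 1 in CE+BZA. Without genes with 2 or more mice at the floor, which leaves fewer than 49 listed genes, 3 were called in E2 and 2 in CE+BZA. Leaving out 1 mouse called 0 to 1 in E2, 0 to 1 in CE and 0 to 1 in CE+BZA. For these settings at the FDR rule no share over all genes is given here. Whether the counts moved in these lists alone or across the table therefore cannot be read from them. The cause of the moves was not tested.

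Replicate numbers recur between groups, but the animals differ. Same-numbered mice of different groups correlated at −0.05 to 0.10 over 13 pairs, against −0.18 to 0.23 over 77 other pairs, and 2 of 15 mice correlated best with a mouse of their own number. With a replicate block, the E2 difference was −1.61 and 0 listed genes were called in CE. E2 replicate 5, CE replicate 6 and CE+BZA replicate 2 share their number with no other mouse. The block therefore fits these mice exactly, and they do not inform the group differences.

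The highest estimate for Pla2g4f was about 17.1 reads in a mouse, and the CE, BZA and CE+BZA values rest on at most 3 estimated reads each.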
